A study of Homo sapiens with 9 samples.

Results

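The control cells of a melanoma invasion study were described here on their own: 3 of its 9 RNA sequencing libraries, labelled sgScr-A, sgScr-B and sgScr-C referred to as libraries A, B and C. They were chosen by their label alone, as the libraries that received a scrambled guide RNA. The cells were SKMEL-147, a human melanoma line that the study made to express Cas9 and then transduced with a lentiviral guide vector. The scrambled guide has no intended target, so PHF8, the histone demethylase gene that the guides sgPHF8 #1 and sgPHF8 #3 cut in the remaining 6 libraries, was left intact. Those 6 libraries were not used. The control cells are 1 line grown in culture that also carries Cas9 and a vector, and the measurements describe that model. With only this group there was no contrast, and every statement is about level, composition and the spread over 3 libraries.

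Melanocytes arise from the neural crest, and melanoma cells can occupy several states along that history. In the pigmented state the transcription factor MITF, acting below SOX10 and PAX3, maintains the genes of melanin synthesis. Other melanoma cells lose pigment genes and carry either neural crest markers such as the receptor NGFR or a mesenchymal program with AXL, matrix proteins and AP-1 factors.

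Levels are given as counts per 1000000 (CPM), a feature's count divided by its library's total. The totals were 19838142, 19750589 and 19446946 counts in libraries A, B and C. A feature counted as detected at 1 CPM or more in all 3 libraries and absent under 0.1 CPM in all 3. A count of 0 in all 3 libraries still allows 0.0508 CPM, from 3 counts in the pooled total, and in a single library it allows 0.151 to 0.154 CPM, as limits for counting error only. Comparisons between genes use CPM per kb of annotated exon, because a longer transcript yields more counts at the same number of molecules. Values after ± are SDs over the 3 libraries. In RNA from a whole culture, fewer cells that express a gene and less RNA per cell cannot be told apart.

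Of 57736 features, 12808 (22.2%) were detected and 30497 had no count in any of the 3 libraries. Among 19543 features annotated as protein coding, 11488 (58.8%) were detected, against 661 of 12809 long noncoding RNA genes (5.16%). The median protein-coding feature stood at 6.92 CPM, and the median detected protein-coding feature at 36.7 CPM. These shares are the background for the gene lists that follow. The lists held 532 features of the table, of which 372 were detected. Detection ran from every member of the SMAD, proliferation and PHF8 family lists to none of the leukocyte markers.

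**Figure D1:**
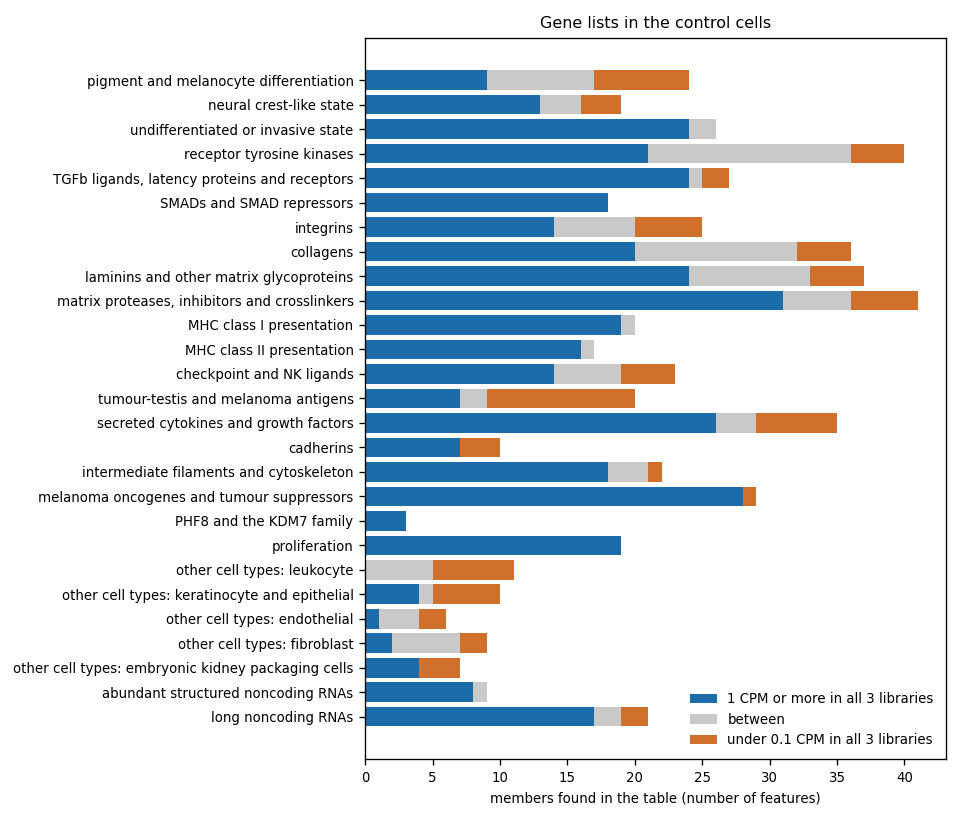
Bars give the number of features of each gene list found in the table, split into detected (1 CPM or more in all 3 control libraries), absent (under 0.1 CPM in all 3) and those between. The pigment list held 9 detected of 24 members, the undifferentiated list 24 of 26, and the MHC class II list 16 of 17, while none of 11 leukocyte markers was detected.

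The pigment program was largely silent, while the lineage factors above it were still transcribed. Only 9 of 24 pigment and melanocyte differentiation genes were detected, a share of 37.5% that lay below the 58.8% of protein-coding features in general, and the list's median was 0.288 CPM. SOX10 (hg19 chr22:38366693-38383429), the neural crest factor that switches on MITF, stood at 154, 149.9 and 147 CPM in libraries A, B and C. PAX3, its partner at the MITF promoter, stood at 23.0, 25.3 and 25.8 CPM. MITF itself was low, at 13.6, 14.7 and 12.8 CPM, or 1.85 ± 0.127 CPM per kb against 31.1 ± 0.704 for SOX10. The ranges of the 3 factors did not overlap, so SOX10 was the highest and MITF the lowest of them on the per-length scale.

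The melanin enzymes and the melanosome proteins were at or near 0. TYR, the rate-limiting enzyme of melanin synthesis, had no count in any library, and neither did MLANA, SLC24A5, TRPM1 or the epithelial cadherin CDH1. TYRP1 had 0, 0 and 1 counts and IRF4, a factor that cooperates with MITF at the TYR gene, had 0, 1 and 0 counts in libraries A, B and C. DCT, which follows TYR in the pathway, stood at 0.202, 0.152 and 0.154 CPM, and PMEL, the fibril protein of the melanosome, at 0.605, 0.304 and 0.309 CPM. These levels rest on 12 counts or fewer per library, so their order was not resolved. Beside the 3 factors, the detected members were genes of melanosome traffic and receptors, and none was an enzyme of pigment synthesis. RAB38 stood at 13.0 ± 0.0821 CPM per kb, the melanophilin gene MLPH at 8.89 ± 0.233, RAB27A at 2.25 ± 0.111 and MREG at 2.07 ± 0.0657. MC1R and EDNRB, receptors of the melanocyte, were just above the detection limit at 2.63 and 1.20 CPM, and 40.2% of the MC1R exon length is shared with another gene on the same strand.

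Neural crest genes gave a mixed pattern, with NGFR and NES at the top. In all, 13 of 19 list members were detected, 68.4% against 58.8% of protein-coding features in general. NGFR, the low-affinity nerve growth factor receptor (hg19 chr17:47572655-47592370), stood at 621, 647 and 631 CPM, or 153 ± 3.16 CPM per kb, above 98.5% of detected features. NES, an intermediate filament of neural progenitors, stood at 684, 718 and 694 CPM, or 125 ± 3.13 CPM per kb, so NGFR was the higher per length and NES the higher in CPM. Both lay far above the other members, the adhesion molecule L1CAM at 30.03 ± 1.51, the ligand GDNF at 18.8 ± 0.339 and the integrin subunit gene ITGA4 at 10.1 ± 0.357 CPM per kb. NGFR and NES did not overlap over the 3 libraries on either scale.

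The transcription factors of the same list were much lower. SOX9 stood at 16.1, 16.4 and 14.1 CPM, TFAP2A at 12.6, 10.8 and 10.5 CPM, SOX2 at 3.38, 3.09 and 3.09 CPM and FOXD3 at 1.71, 1.37 and 1.39 CPM. RXRG, GFRA2 and TFAP2B, markers often read together with NGFR in melanoma, had no count in any library. AQP1 and S100B, also markers of that state, stood at 0.119 and 0.373 CPM. NGFR and NES were thus high in libraries where RXRG and GFRA2 were not detectable at this depth.

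Genes of the undifferentiated or invasive state were the highest of the 3 state lists. Of 26 members 24 were detected, with a median of 149.8 CPM. VIM, the mesenchymal intermediate filament, led with 7926, 7969 and 7877 CPM, followed by the matricellular protein gene THBS1 with 5392, 5512 and 5446 CPM. AXL, a receptor tyrosine kinase (hg19 chr19:41725128-41767671), stood at 1504, 1517 and 1516 CPM, above 99.2% of detected features per length. TNC, encoding tenascin C, stood at 147 ± 4.90 CPM per kb. Of the VIM exon length, 24.6% overlaps antisense transcripts, and the strand setting of the counting was not given in the sources used here.

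Transcription factors in this list spanned a wide range. The AP-1 members JUN and FOSL1 stood at 68.0 ± 1.66 and 59.1 ± 5.28 CPM per kb. Among the factors of the mesenchymal program, SNAI2 stood at 16.9 ± 0.375, TEAD4 at 13.9 ± 1.00, ZEB1 at 8.95 ± 0.161, TWIST1 at 6.27 ± 0.585 and ZEB2 at 3.35 ± 0.0574 CPM per kb. SNAI1 was far lower, below 1 CPM per kb, and without the length correction it stood at 1.26, 1.27 and 1.49 CPM. The SNAI2 and SNAI1 paralogs did not overlap, and neither did ZEB1 and ZEB2. PDGFRB and F2RL1 were the only members not detected, at 0.898 and 0.220 CPM.

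Summed over members, the undifferentiated list held 3404 ± 22.9 CPM per kb and the pigment list 64.0 ± 0.778, with the neural crest list between them at 348 ± 7.31. The ratio of the undifferentiated to the pigment sum was 53.2, 52.8 and 53.4 in libraries A, B and C. Without VIM and SOX10, the highest member of each list, it was 56.9. The sums compare lists of 24 and 26 chosen genes and say nothing of other genes. Those lists were chosen with earlier results of these data known, so the ratio may in part reflect the choice.

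**Figure D2:**
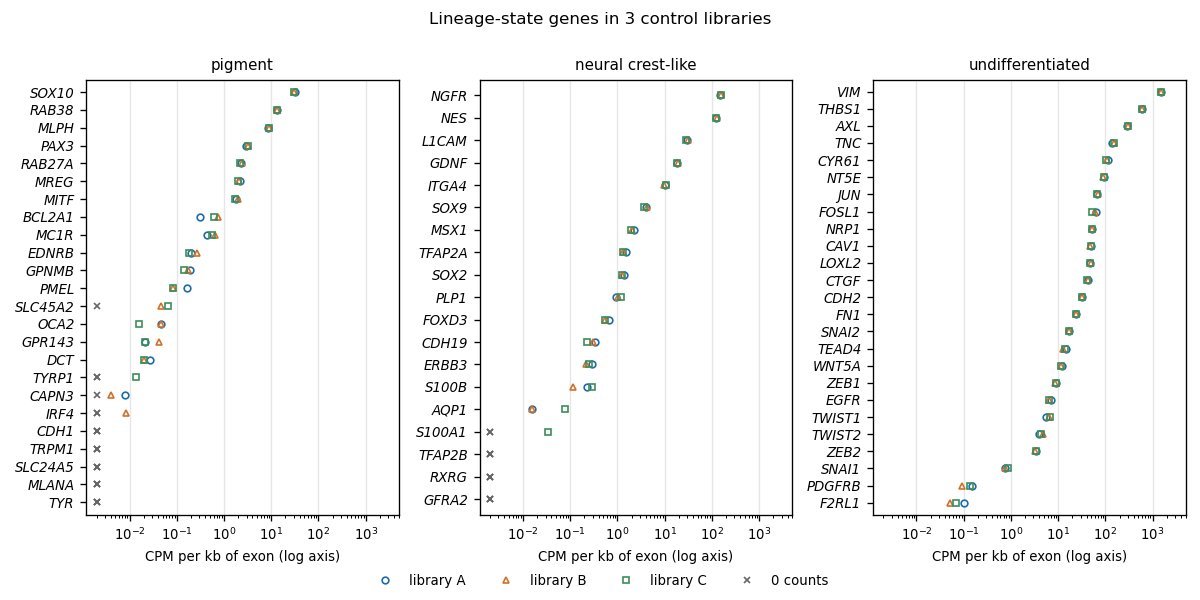
Each row is a gene named from the pigment, neural crest-like or undifferentiated list, and the symbols give its CPM per kb of exon in libraries A, B and C on a log axis, with crosses at the left edge for a count of 0. Pigment enzymes sit at or near 0 while SOX10 stands at 31.1 ± 0.704 CPM per kb, and only SNAI1, PDGFRB and F2RL1 of the undifferentiated panel lie below 1 CPM per kb.

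The promoters of 2 silent pigment genes are shown because they hold few CG dinucleotides and a repeated E-box. Sequences are from the RefSeq promoter table (GRCh38.p14), read 5′ to 3′ over the 250 bases before the annotated start, and capitals mark the E-box CATGTG, or its reverse complement CACATG, the core of the element that MITF is known to bind.
TYR (chr11:89177625-89177874, plus strand): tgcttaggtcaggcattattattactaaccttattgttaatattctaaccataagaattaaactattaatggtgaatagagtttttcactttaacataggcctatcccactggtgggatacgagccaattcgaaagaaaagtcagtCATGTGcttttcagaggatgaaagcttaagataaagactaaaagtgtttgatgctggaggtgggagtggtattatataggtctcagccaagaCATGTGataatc
TYRP1 (chr9:12693135-12693384, plus strand): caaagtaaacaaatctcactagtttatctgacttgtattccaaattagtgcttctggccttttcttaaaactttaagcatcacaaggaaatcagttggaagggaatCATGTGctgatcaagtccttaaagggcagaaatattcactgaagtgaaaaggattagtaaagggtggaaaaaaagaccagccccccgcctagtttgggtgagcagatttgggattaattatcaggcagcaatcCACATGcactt
TYR holds the hexamer 2 times and TYRP1 also 2 times, with 2 and 1 CG dinucleotides. Of the 11 pigment genes with a single promoter in that table, 8 hold CATGTG on either strand, against 7.05% of 11042 protein-coding features matched to a single promoter and 9.88% of all 22029 promoters of genes with a single entry. Among the 8 are TYR, TYRP1, SLC24A5, OCA2 and GPR143, none of them detected, and MC1R, which was detected. A match of 6 letters is a description of the sequence and not evidence of a bound site.

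Across the 11042 of 19543 protein-coding features that were matched to a single promoter, level and promoter CG content went together. The median number of CG dinucleotides in the 250 bases was 4 for 2457 protein-coding features with no count in any library, 10 for 1927 features with a count that were not detected, 20 for 1282 detected features with a mean under 10 CPM, 22 for 3979 features from 10 to 100 CPM and 23 for 1397 features at 100 CPM or more. The rise therefore lay mainly between features that were not detected and those that were. The sequence TATAAA on either strand was present in 21.5% of the promoters with no count and in 12.7% of those with a count that were not detected. Among detected features it was present in 5.38% under 10 CPM, 4.07% from 10 to 100 CPM and 6.73% at 100 CPM or more. Genes are not independent replicates, and these figures are given as a description.

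Among receptor tyrosine kinases, the cell surface receptors for growth factors, AXL was the highest. Of 40 members 21 were detected, 52.5% against 58.8% of protein-coding features in general. EPHA2, an ephrin receptor, was next with 68.7 ± 0.907 CPM per kb against 295 ± 1.44 for AXL, with no overlap over the libraries. MET, the receptor of hepatocyte growth factor, and RYK, a WNT co-receptor, followed at 23.0 ± 0.613 and 21.4 ± 0.0565. The collagen receptors DDR2 and DDR1 stood at 14.8 ± 0.109 and 10.8 ± 0.184, and EGFR and PTK7 at 6.67 ± 0.313 and 6.62 ± 0.340 CPM per kb, the last pair overlapping over the 3 libraries. GAS6, which encodes the ligand of AXL, stood at 86.8, 84.6 and 82.1 CPM. TYRO3, a relative of AXL, stood at 48.4, 51.1 and 52.6 CPM, while MERTK, the other relative, stood at 0.353, 0.304 and 0.411 CPM.

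Receptors of the melanocyte were low. KIT, the receptor for stem cell factor on which melanocytes depend, stood at 0.252, 0.354 and 0.360 CPM. ERBB3, a neuregulin receptor, stood at 3.38, 2.53 and 2.98 CPM, and its partner ERBB2 at 35.3, 32.8 and 31.8 CPM. FLT1 and ROR2 had no count in any library, and RET and FGFR2 had at most 1 count per library. Among FGF receptors, FGFR1 stood at 27.4, 30.2 and 28.7 CPM and FGFR4 at 5.65, 5.82 and 5.96 CPM, against 0.237 CPM for FGFR3. PDGFRA and PDGFRB, receptors of the platelet-derived growth factors PDGFA (74.4 CPM) and PDGFC (53.6 CPM), stood at 0.153 and 0.898 CPM.

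Genes of the TGFb pathway were detected at each of its levels, from latent ligand to SMAD and feedback genes. In this pathway, latent ligands are held in the matrix by LTBP proteins, released by integrins, and bind the paired receptors TGFBR1 and TGFBR2, which phosphorylate SMAD2 and SMAD3. Of 27 ligand, latency and receptor genes 24 were detected. Of the ligands, TGFB2 stood at 49.2 ± 1.84 CPM, or 992, 930 and 982 counts in libraries A, B and C, TGFB1 at 13.6, 15.2 and 13.2 CPM and TGFB3 at 2.47, 2.13 and 2.73 CPM. Per length TGFB2 was the highest at 8.13 ± 0.305 CPM per kb, against 4.29 ± 0.326 for TGFB1 and 0.467 ± 0.0575 for TGFB3, and their ranges did not overlap. Part of the TGFB2 exon length is shared with other transcripts, 22.7% on the same strand and 11.6% antisense. INHBA, the activin A subunit, stood at 12.9 ± 0.226 CPM per kb, higher than any of the TGFb ligands, and INHBB was near 0 at 0.0676 CPM.

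Of the receptors, TGFBR1 was the highest, at 242, 248 and 252 CPM, and TGFBR2 followed at 90.0, 88.8 and 84.5 CPM. On the per-length scale they stood at 31.0 ± 0.661 and 12.8 ± 0.418 CPM per kb. The co-receptor ENG stood at 28.4, 28.3 and 23.9 CPM, and the BMP receptors BMPR2 and BMPR1A at 5.50 ± 0.224 and 5.33 ± 0.201 CPM per kb, a pair whose ranges overlapped. The latency proteins LTBP2 and LTBP3 stood at 11.9 ± 0.356 and 10.7 ± 0.134 CPM per kb. ACVRL1, an endothelial receptor of the family, and LRRC32, which holds latent TGFb on T cells and platelets, had 1 count each over all 3 libraries. TGFBI, a matrix protein named for its induction by TGFb, stood at 2267, 2368 and 2285 CPM and was among the 20 highest features of the cells.

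All 18 SMAD and repressor genes were detected. SMAD3 stood at 14.5 ± 0.1001 CPM per kb, SMAD5 at 13.9 ± 0.122, SMAD2 at 5.01 ± 0.0438, SMAD4 at 3.79 ± 0.220 and SMAD1 at 1.83 ± 0.140. Without the length correction SMAD2 stood above SMAD3, at 183 against 145 CPM, and the annotated exon length of SMAD2 is the greater, so their order depends on the length used. The highest member was ID1, an inhibitor of differentiation factors, at 129 ± 2.63 CPM per kb, with ID3 at 35.3 ± 0.265, ID2 at 7.68 ± 0.443 and ID4 at 0.323 ± 0.0390. SMURF2 and SKIL, negative regulators of SMAD signalling, stood at 34.2 ± 0.224 and 21.5 ± 0.246 CPM per kb. The inhibitory SMAD7 stood at 14.7, 16.3 and 14.8 CPM and SMAD6 at 2.17, 2.18 and 2.26 CPM.

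**Figure D3:**
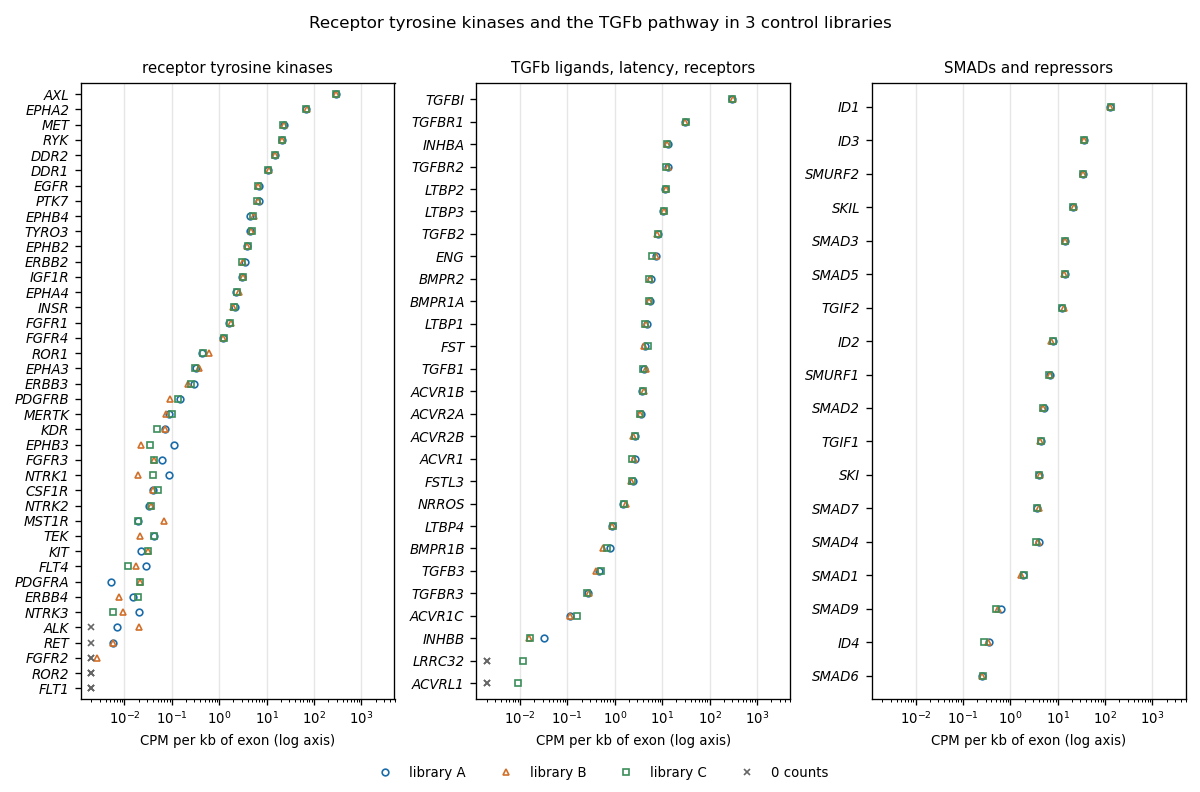
Each row is a gene of the receptor tyrosine kinase, TGFb or SMAD list, and the symbols give its CPM per kb of exon in libraries A, B and C on a log axis, with crosses for a count of 0. AXL lies apart from all other receptor kinases at 295 ± 1.44 CPM per kb, TGFBI and TGFBR1 lead the TGFb panel, and no SMAD list gene falls below 0.1 CPM per kb.

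Integrin subunits of laminin and fibronectin receptors were the highest of their list. Of 25 integrin subunits 14 were detected, 56.0% against 58.8% of protein-coding features in general. ITGA3 and ITGA6, which each pair with ITGB1 to form laminin receptors, stood at 132 ± 2.92 and 67.5 ± 1.32 CPM per kb, with ITGB1 between them at 78.0 ± 1.09. ITGA5, the fibronectin receptor subunit, stood at 40.8 ± 0.330, and ITGB8 and ITGB5, which pair with ITGAV to bind latent TGFb or vitronectin, at 33.5 ± 0.791 and 27.0 ± 0.501 CPM per kb. ITGAV itself stood at 8.72 ± 0.226. ITGB3, the partner of ITGAV in many melanomas, was low at 11.1, 9.72 and 9.51 CPM, with 33.2% of its exon length shared with another gene on the same strand. Among subunits known from leukocytes, ITGB2, ITGAL and ITGAX had at most 1 count per library and ITGAM had 4, 15 and 6 counts, while ITGAE was detected, at 11.8 ± 0.552 CPM. ITGA8 and ITGA11 had no count in any library. Among the 14 detected subunits, no neighbours in the per-length order overlapped over the 3 libraries.

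The cadherins showed the neural and mesenchymal form without the epithelial one. CDH2, encoding N-cadherin, stood at 272, 277 and 277 CPM, and CDH13 at 100.3, 100.4 and 100.2 CPM. CDH1, CDH3 and CDH5, the epithelial, placental and endothelial cadherins, had no count in any library. In the cytoskeleton list, 18 of 22 members were detected, led by VIM at 1531 ± 8.92 CPM per kb, by the actins ACTB and ACTG1 at 831 ± 18.1 and 822 ± 9.86, whose ranges overlapped, and by the actin crosslinker FLNA at 348 ± 8.76. Keratins were not absent. KRT80 stood at 191, 199 and 198 CPM and KRT18 at 104, 109.9 and 103 CPM, while its usual partner KRT8 stood at 4.79, 5.42 and 4.37 CPM and KRT19 at 1 count or less per library. The smooth muscle actin gene ACTA2 was not detected, at 1.01, 0.810 and 0.823 CPM.

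The highest collagen genes were those of anchoring fibrils and basement membrane, and those of fibrillar stroma were low. Of 36 collagen genes 20 were detected, 55.6% against 58.8% of protein-coding features in general. COL7A1, which forms anchoring fibrils (hg19 chr3:48601506-48632762), stood at 813, 819 and 802 CPM, or 72.9 ± 0.759 CPM per kb. COL18A1 and the paired chains of type IV collagen, COL4A2 and COL4A1, stood at 31.8 ± 0.709, 24.9 ± 0.680 and 12.1 ± 0.295 CPM per kb. COL4A1 and COL4A2 share a promoter region and encode chains of the same trimer, and their levels did not overlap. COL13A1 and COL12A1 stood at 12.9 ± 0.340 and 10.7 ± 0.267. The minor fibrillar chains COL5A2 and COL5A1 stood at 8.38 ± 0.157 and 7.54 ± 0.271 CPM per kb.

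The major fibrillar chains were nearly missing. COL1A1 stood at 4.54, 3.44 and 3.81 CPM, COL1A2 had 1, 1 and 0 counts and COL3A1 4, 0 and 1 counts in libraries A, B and C. COL6A1 and COL6A2 were detected at 14.9 and 11.7 CPM, while COL6A3, the remaining chain of that trimer, stood at 0.558 CPM. COL4A3, COL9A1 and COL10A1 had no count in any library.

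The highest list member of the extracellular matrix was THBS1. The 37 glycoprotein genes of the list summed to 13363 ± 203 CPM, of which THBS1 gave 5449.9, and 24 were detected. That share was 64.9%, against 58.8% of protein-coding features in general. After THBS1 and TGFBI, SPARC, a collagen-binding protein, stood at 231 ± 2.73 CPM per kb, TNC at 147 ± 4.90, the CCN proteins CYR61 and CTGF at 107 ± 5.28 and 41.9 ± 1.14, and the heparan sulfate proteoglycan agrin (AGRN) at 51.5 ± 2.34. VCAN, encoding versican, stood at 27.8 ± 0.853 and FN1 at 23.6 ± 0.292 CPM per kb. Among laminin chains, LAMB2, LAMB3, LAMC1 and LAMB1 stood at 34.5 ± 0.784, 25.9 ± 0.933, 22.6 ± 0.503 and 4.65 ± 0.0802 CPM per kb, while LAMA5 was the only alpha chain of the list detected, at 7.01, 6.33 and 6.79 CPM. LAMA4, the next, stood at 0.756, 1.47 and 1.13 CPM. BGN, DCN and ELN, products of stromal fibroblasts, had no count, and POSTN had 1 count over all 3 libraries.

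Proteases and their inhibitors were both detected, and MMP14 was the highest of the metalloproteinases. Of 41 members 31 were detected. MMP14, a membrane-anchored collagenase that activates MMP2, stood at 582, 595 and 575 CPM, and MMP2 at 91.5, 86.2 and 78.6 CPM. MMP9 had 1, 0 and 0 counts, and MMP7, MMP10 and MMP13 had no count in any library. MMP1 and MMP3, interstitial collagenase and stromelysin, were not detected, at 0.424 and 0.220 CPM. Their inhibitors TIMP2, TIMP1 and TIMP3 stood at 50.4 ± 1.87, 36.2 ± 0.698 and 10.3 ± 0.238 CPM per kb, and TIMP4 had no count. Of the plasminogen system, the receptor PLAUR stood at 29.6 ± 1.13 and tissue activator PLAT at 20.5 ± 0.665, against 1.504 ± 0.125 CPM per kb for PLAU, the ligand of that receptor, 31.0% of whose exon length overlaps an antisense gene. The collagen crosslinkers LOXL2 and LOXL3 stood at 48.5 ± 1.79 and 19.8 ± 0.233, above LOX at 5.29 ± 0.198 CPM per kb.

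**Figure D4:**
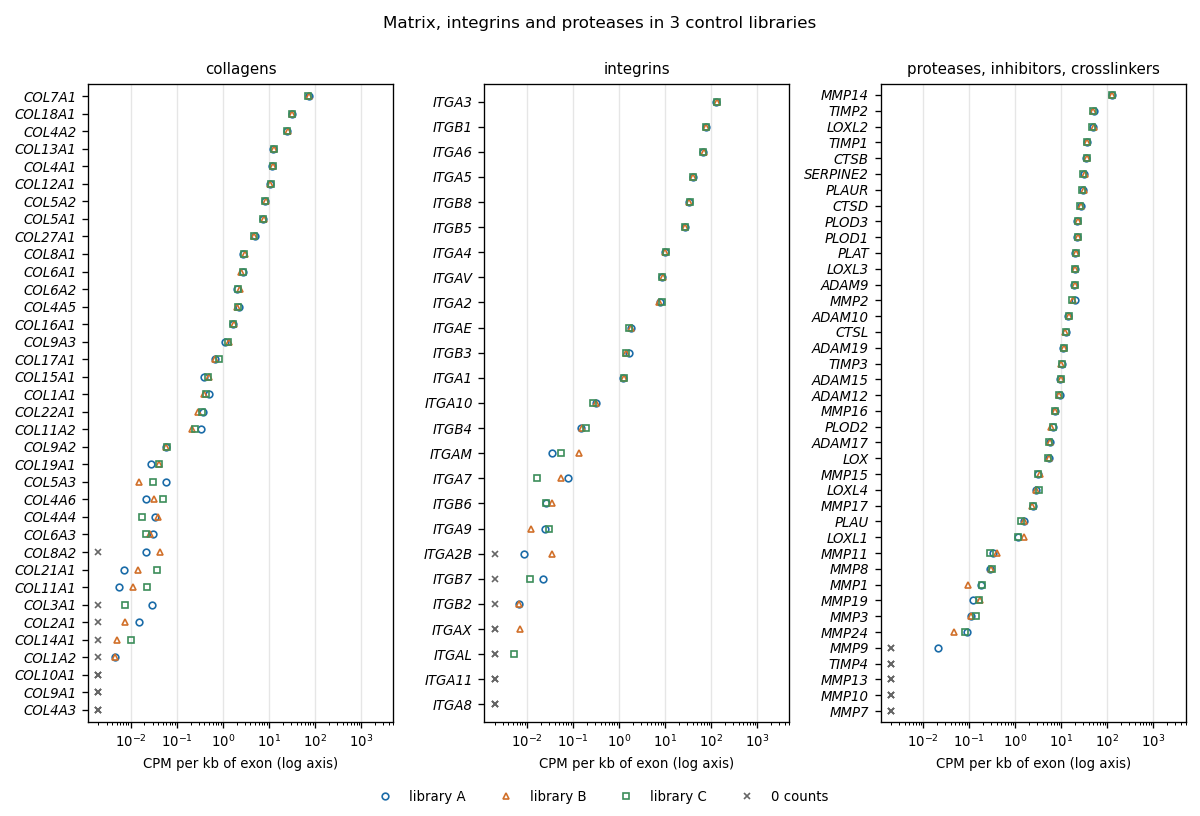
Each row is a collagen, an integrin subunit, or a protease, inhibitor or crosslinker gene, and the symbols give its CPM per kb of exon in libraries A, B and C on a log axis, with crosses for a count of 0. COL7A1 leads the collagens and ITGA3 the integrins, while COL1A2, COL3A1 and MMP9 sit at the low end with 0 counts in at least 1 library.

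Genes of both arms of antigen presentation were detected. MHC class I molecules show peptides of the cell's own proteins to CD8+ T cells and are made by most cells, whereas class II molecules show peptides to CD4+ T cells and are made mostly by immune cells unless the master regulator CIITA is active. Of 20 class I pathway genes 19 were detected. The chaperone CALR was the highest per length, at 291 ± 7.02 CPM per kb. B2M, the light chain, stood at 811, 808 and 820.2 CPM, and the heavy chains HLA-B and HLA-C at 217 and 246 CPM. HLA-E stood at 207 CPM. The peptide transporter genes TAP1 and TAP2 stood at 14.6 ± 0.597 and 5.31 ± 0.0988 CPM per kb, the immunoproteasome subunits PSMB8, PSMB9 and PSMB10 at 15.0 ± 0.466, 5.76 ± 0.649 and 3.07 ± 0.662, and NLRC5, the class I transactivator, at 3.67 ± 0.175. HLA-G was the only member not detected. HLA genes share sequence, and reads that fit several of them may have been dropped or assigned to the wrong member, so the levels of single HLA genes are uncertain.

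Class II genes were detected as nearly a full set. Of 17 members 16 passed, and HLA-DOB was the exception at 0.454, 0.456 and 0.411 CPM. HLA-DRA (hg19 chr6:32407655-32412823) stood at 460.4, 472 and 437 CPM, above 99.5% of detected features per length, and CD74, the invariant chain, at 507, 549 and 492 CPM. HLA-DRB1 stood at 77.3 ± 2.87 CPM per kb, HLA-DPA1 and HLA-DPB1 at 27.5 ± 1.31 and 15.3 ± 0.861, and HLA-DQA1 and HLA-DQB1 at 3.67 ± 0.346 and 3.85 ± 0.0699. The order DR, DP, DQ held for the alpha chains and for HLA-DRB1, HLA-DPB1 and HLA-DQB1, with no overlap between these 3, while HLA-DRB5 overlapped HLA-DPB1. CIITA stood at 56.2, 59.6 and 57.7 CPM. The RFX subunits that bind class II promoters, RFX5, RFXANK and RFXAP, stood at 34.3 ± 1.03, 12.9 ± 0.644 and 2.19 ± 0.0637 CPM per kb. HLA-DMA and HLA-DMB, which load peptide, stood at 51.9 and 24.9 CPM, and the protease gene CTSS at 27.4 CPM. The summed list stood at 1883, 1972 and 1823 CPM in libraries A, B and C, highest in library B. The summed leukocyte markers stood at 1.41, 1.92 and 1.23 CPM, also highest in library B. These sums rest on few counts per library, and the excess in library B lay in ITGAM, whose counts are given with the integrins. The order of the libraries in this sum was therefore not resolved. None of the leukocyte markers CD3E, CD3D, MS4A1, FCGR3A and NKG7 had a count in any library, PTPRC stood at 0.0336 CPM, and the myeloid markers CD14, LYZ, ITGAM and CD68 had counts but were not detected, at 0.525, 0.457, 0.423 and 0.0842 CPM. The part of such cells in the class II levels was not tested.

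Promoters of this set are shown because a common element can be read in them. Capitals mark CTGATTGG, the Y box of class II promoters, in HLA-DRB1, and the inverted CCAAT box ATTGG at its core, printed here from the opposite strand, in CD74. Both are RefSeq sequence of GRCh38.p14, not the sequence of this line.
HLA-DRB1 (chr6:32589849-32590098, minus strand): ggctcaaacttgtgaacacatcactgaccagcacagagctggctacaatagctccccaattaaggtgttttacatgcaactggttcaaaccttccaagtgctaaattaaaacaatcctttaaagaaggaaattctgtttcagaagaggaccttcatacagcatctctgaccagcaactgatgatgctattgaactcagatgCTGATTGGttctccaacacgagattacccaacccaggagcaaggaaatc
CD74 (chr5:150412911-150413160, minus strand): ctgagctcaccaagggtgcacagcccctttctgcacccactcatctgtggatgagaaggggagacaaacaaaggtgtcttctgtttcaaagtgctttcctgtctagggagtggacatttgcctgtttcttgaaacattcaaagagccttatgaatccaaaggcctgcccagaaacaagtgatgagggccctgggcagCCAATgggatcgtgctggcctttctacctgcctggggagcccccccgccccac
The pentamer ATTGG was found on either strand in 10 of 11 list members with a single promoter in the table, against 35.9% of matched protein-coding features, and CTGATTGG in 4 of 11, against 5.50%. The longer motif contains the shorter. Of 9 MHC class I list members with a single promoter, 6 held ATTGG and 4 held CTGATTGG. RFXAP, which encodes a regulator and not a class II chain, was the member without ATTGG.

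Of 23 checkpoint and NK ligand genes, whose products are read by T cells and NK cells, 14 were detected. This share of 60.9% was near the 58.8% of protein-coding features in general. NT5E, encoding the adenosine-producing enzyme CD73, stood at 91.5 ± 1.21 CPM per kb and was the highest. CD276 stood at 23.2 ± 0.577, CD274, encoding PD-L1, at 19.1 ± 0.256 and its relative PDCD1LG2 at 7.54 ± 0.172 CPM per kb. CD274 was close in the 3 libraries, at 77.3, 79.2 and 79.0 CPM. The NK ligands MICA and MICB stood at 16.5 ± 0.767 and 13.9 ± 1.18, and PVR and PVRL2, ligands of TIGIT and DNAM-1, at 16.3 ± 0.135 and 21.3 ± 0.657 CPM per kb. CD80, CD86 and IDO1 had no count in any library, and VTCN1 had 0, 1 and 1 counts. CD40, another costimulatory molecule, was not detected, at 0.423 CPM.

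**Figure D5:**
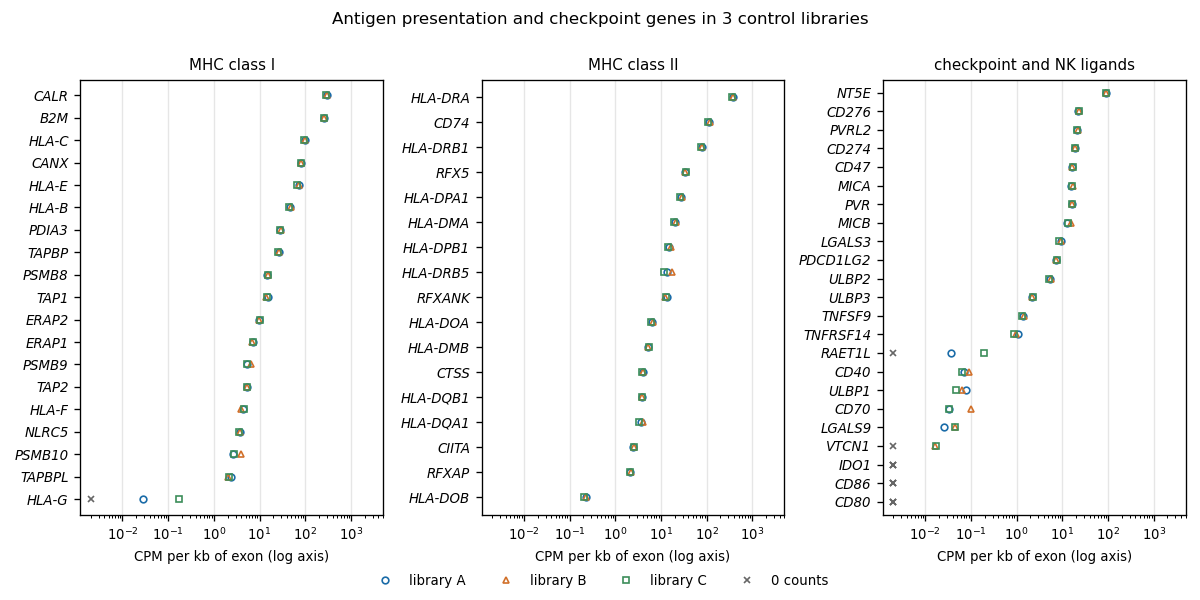
Each row is an MHC class I pathway, MHC class II pathway, or checkpoint and NK ligand gene, and the symbols give its CPM per kb of exon in libraries A, B and C on a log axis, with crosses for a count of 0. HLA-DRA and CD74 stand at 367 ± 14.2 and 114 ± 6.51 CPM per kb beside B2M at 261 ± 1.99, and IDO1, CD86 and CD80 have no counts.

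Of the antigens that T cells recognise on melanoma, the pigment antigens were at or near 0 and some antigens of the testis were detected. Of 20 members 7 were detected. PRAME stood at 180.3, 184 and 188 CPM. MAGEA12, MAGEA1, MAGEA6, MAGEA3, MAGEA10 and MAGEA4 lay between 57.6 and 114 CPM. MAGEA3 and MAGEA6 are near-identical copies, so reads could be split between them and their separate values are uncertain. CTAG1B, CTAG2, MAGEB2, MAGEC1, MAGEC2, SSX2, SAGE1, XAGE1A and XAGE1B had no count in any library, which for near-identical copies can also come from reads dropped as ambiguous.

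The highest secreted factors per length were IL24, the chemokines CXCL1 and IL8, IL1B and LIF. Of 35 members 26 were detected. IL24 stood at 338, 323 and 324 CPM, though 41.6% of its exon length overlaps an antisense gene. The neutrophil chemokines CXCL1 and IL8 stood at 87.5 ± 3.09 and 78.9 ± 0.896 CPM per kb, IL1B at 74.5 ± 0.732, LIF at 65.6 ± 0.164 and IL11 at 40.4 ± 1.32. IL6, which belongs to the family of LIF and IL11, was lower, at 29.0, 27.9 and 29.4 CPM. The related chemokines CXCL2 and CXCL3 were also lower, at 8.72, 6.99 and 9.41 CPM and 4.34, 3.19 and 3.70 CPM. HBEGF, a ligand of EGFR, stood at 111, 111 and 108 CPM, while AREG had no count and EREG had 1 over all 3 libraries. HGF, the ligand of MET, had no count either. CXCL10 and IFNB1 had no count and TNF had 1 over all 3 libraries, beside a detected class I and class II pathway.

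Growth control genes were nearly all detected. Of 29 melanoma oncogenes and tumour suppressors 28 were detected, and CDKN2B alone had no count in any library. Its neighbour CDKN2A (hg19 chr9:21967751-21995300) stood at 133, 137 and 142 CPM, and CDKN2B lies at chr9:22002902-22009304 on the same strand. The 3 libraries agreed in this, and gene copy number was not measured. Antisense transcripts overlap 15.3% of the CDKN2A exon length. The value counts all transcripts of the gene, so p16 and p14ARF were not separated. CCND1 was the highest of the list at 178 ± 2.92 CPM per kb, with its kinases CDK4 and CDK6 at 109 ± 0.544 and 28.4 ± 1.20, though 44.2% of the CDK4 exon length overlaps an antisense gene, and the inhibitor CDKN1A at 77.7 ± 1.38. NRAS stood at 39.4 ± 0.473 and HRAS at 22.8 ± 0.503 CPM per kb, with no overlap. BRAF stood at 28.5, 26.5 and 25.8 CPM. NF1, a negative regulator of RAS, stood at 122 CPM, and TERT, the telomerase enzyme, was low at 2.42, 3.49 and 2.88 CPM. TERC, the telomerase RNA, stood at 59.1, 55.8 and 57.2 CPM.

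Every one of 19 proliferation genes was detected. PCNA stood at 214 ± 2.22 CPM per kb, CCNB1 at 135 ± 3.38, TOP2A at 122 ± 3.97 and CCNA2 at 81.8 ± 3.18, and MKI67 at 28.8 ± 1.09. CCNE1 was the lowest at 9.63, 9.47 and 10.4 CPM. PHF8 (hg19 chrX:53963109-54075391), the gene that the study's other guides target, stood at 35.5, 32.8 and 34.3 CPM. Its relative PHF2 was higher, at 72.3, 78.2 and 77.4 CPM, and KDM7A lower, at 5.09, 4.30 and 4.47 CPM, and none of the ranges overlapped on the per-length scale.

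Markers of other cell types were read in the same libraries. Of 11 leukocyte markers none was detected, and their summed level was 1.23 to 1.92 CPM. Of 9 fibroblast markers 2 were detected, LUM at 17.2, 16.1 and 15.5 CPM and COL1A1, with a summed level of 20.4 to 22.9 CPM, while DCN and PDPN had no count. Of 6 endothelial markers TIE1 alone was detected, at 8.17, 7.49 and 9.26 CPM, with a summed level of 8.71 to 10.7 CPM, while CDH5 and CLDN5 had no count.

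Among 10 keratinocyte and epithelial markers, DSP, KRT10, KRT14 and CLDN1 were detected, and the list summed to 117 to 119.8 CPM. DSP, a desmosome component, gave most of it, at 95.7, 98.4 and 97.3 CPM. KRT5, KRT1, DSG3 and CDH1 had no count and TP63 had 1 over all 3 libraries. Of 7 markers of embryonic kidney cells, the kind of cell in which the study packaged its lentivirus, 4 were detected, and the list summed to 39.1 to 41.8 CPM. NEFL, EYA1 and WT1 were among the detected markers, at 16.3, 3.85 and 1.51 CPM. The remaining detected marker, not reported here by name, gave the largest part of the sum. The 3 that were not detected, PAX2, NEFM and NPHS1, had at most 1 count over all 3 libraries. The part of other cells in any level above was not tested. The label of the line was read against its lineage list, where SOX10 was detected and the pigment markers TYR and MLANA were at 0.

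Most counts lay on messenger RNA genes, and the largest noncoding share lay on short structured RNAs. Libraries were made from total RNA after removal of ribosomal RNA, so transcripts without a poly(A) tail were retained. Protein-coding genes other than those for ribosomal proteins and clustered histones took 86.7% of counts in each library. Ribosomal RNA genes sought by name, mitochondrial ones among them, were not among the features counted, so the shares leave them out. Genes of cytosolic ribosomal proteins took 5.50 ± 0.0347%, with 84 of 87 detected. The 7SL RNA of the signal recognition particle took 3.06 ± 0.0435% and 7SK RNA, which restrains transcription elongation, 1.03 ± 0.0220%. RMRP and RPPH1, RNA components of RNase MRP and RNase P, took 0.875 ± 0.00704%. Long noncoding RNA genes took 0.948 ± 0.0165%, pseudogenes 0.308 ± 0.00396%, snoRNAs and scaRNAs 0.139 ± 0.00778% and snRNAs 0.0305 ± 0.00418%. Features named for a miRNA took 0.154 ± 0.00693%. Most of it lay on a feature that the deposited table names MIR663A but whose identifier, ENSG00000227195, the annotation gives to MIR663AHG, a long noncoding host gene, so the share is not a measure of miRNAs.

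The 20 highest features held 10.3 ± 0.0805% of counts. RN7SL1, RN7SL2 and RN7SK came before any messenger RNA, at 18271, 11884 and 10296 CPM. RN7SL1 and RN7SL2 are near-identical, so the split between them is uncertain. VIM and THBS1 followed, then RPPH1, GAPDH, RMRP, FLNA, ACTB and EEF1A1. DCBLD2, a neuropilin-like membrane receptor, came next at 3544, 3546 and 3581 CPM, followed by ACTG1, EEF2, TUBB, MYH9, TGFBI, HSPA8, ENO1 and HSP90AA1. From 979 to 985 features held 50% of a library's counts.

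Clustered histone genes, whose messages lack a poly(A) tail and are made in S phase, took 1.12 ± 0.00357% of counts. Of 54 such genes 53 were detected. The linker histone genes HIST1H1C and HIST1H1E were the highest at 968, 944 and 953 CPM and 814, 823 and 803 CPM in libraries A, B and C. HIST1H3B stood at 558, 558 and 562 CPM and HIST1H4C at 430.1, 421 and 421 CPM. These genes are short and alike, so single values are uncertain.

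Of 21 long noncoding RNA genes named in the list 17 were detected. MALAT1, a nuclear RNA of speckles, stood at 1106, 993 and 973 CPM, with 83.7% of its exon length overlapped by an antisense gene, and NEAT1, the scaffold of paraspeckles, at 246, 239 and 241 CPM. LINC00657, now named NORAD, stood at 644, 628 and 651 CPM, and per length it was above MALAT1 at 119 ± 2.12 against 98.1 ± 6.86 CPM per kb. The snoRNA host genes SNHG1 and GAS5 stood at 158 and 159 CPM. The imprinted RNA H19 had no count and MEG3 had 1 over all 3 libraries, and HOTAIR was not detected at 0.712 CPM. Among small RNAs, SNORA73B stood at 284, 248 and 246 CPM, SCARNA7 at 183, 188 and 181 CPM and RNU4-2 at 109.6, 83.8 and 91.5 CPM. Short RNAs are recovered unevenly by this kind of library, so these values are not their abundance in the cell.

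The 3 libraries were close to each other. The edgeR common dispersion gave a coefficient of variation beyond counting error of 1.68% over the 12808 detected features. Between any pair of libraries, 4 to 6 detected features differed by more than 2-fold. The chi-square per degree of freedom between pairs was 1.28 to 1.49, where 1 would be counting error alone, so each pair differed by more than counting error. The median coefficient of variation was 12.7% for features of 1 to 5 CPM, where counting error alone gives 12.7%, and 1.78% from 100 to 1000 CPM, where it gives 1.45%. At 1000 CPM and over, it was 1.06% against 0.494%. The study's methods call the 3 samples biological replicates. The spread is that between these samples, and the labels do not say how far back their cultures were separate.

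A single feature with a mean of 1 CPM or more, NEURL2, had a coefficient of variation above 50%, at 61.0%, with 1.11, 2.43 and 0.771 CPM in libraries A, B and C. The 20 features of 5 CPM or more with the highest dispersion included SNORA74A, SNORA54, RNU5A-1, RNU5B-1, RNU2-64P and RNU2-59P, each highest in library A, and SNORA74A stood at 7.01, 4.71 and 4.06 CPM. Library A also had the highest share of snRNA, 0.0353% against 0.0275% and 0.0287%, and of snoRNA, 0.147% against 0.135% and 0.134%. HLA-DRB6, a pseudogene close in sequence to HLA-DRB1, was the most dispersed of the 20 at 3.53, 7.95 and 3.86 CPM, and HLA-DRB5 stood at 16.99, 22.3 and 14.8 CPM, both highest in library B. The immediate early genes FOS and FOSB stood at 9.58, 8.91 and 5.45 CPM and 7.06, 8.91 and 5.45 CPM, both lowest in library C. The other members were RN7SL4P, RNA5-8SP2, ZNF14, CTD-2328D6.1, C14orf79, ADRA1B, AL161626.1, AP003900.6, SNORD3C and ZBTB37. No cause of these differences was tested.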

How the data were processed

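RNA sequencing was measured in 3 control libraries (sgScr-A, sgScr-B, sgScr-C) of SKMEL-147 cells, grouped by their titles. According to the methods, total RNA was depleted of ribosomal RNA, sequenced in pairs and aligned with STAR. The submitters' processing notes name hg19, HTSeq, Picard, bcl2fastq and DESeq2. The annotation release, the strand setting and the treatment of reads with several matches were not given in the sources used here. The authors deposited raw counts per Ensembl gene, and a normalized signal under gene symbols in which the authors divided each count by a size factor of the library (1.08, 1.07 and 1.05). Multiplied by that factor, 100% of its values were whole within 0.001 counts, and the equal counts paired symbols with gene IDs. Features with 0.0587% of counts were left without a symbol. The 6 columns of the other groups in each table were not used.

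Levels were computed as counts per 1000000 of the library total and divided by the length of the union of annotated exons (GENCODE on GRCh37, which is hg19). Exon overlaps of list members with other genes were found with bedtools 2.31.1. A feature was detected at 1 CPM or more in all 3 libraries. RN7SL1 had no annotated exon length. Dispersion was estimated with edgeR 4.0.16 (TMM, intercept only, R 4.3.3) and tested on simulated data. Tables were handled with Python 3.11.15 and pandas 2.3.3. No p-value was computed, since a single group gives no contrast. Promoters came from the RefSeq table of GRCh38.p14, kept where a gene had 1 entry, and matched 273 list members. Of 548 symbols in 27 lists, 532 were in the table. The members and lists were chosen with earlier results of these data known. Named genes were the highest members of each list per length, those under 0.1 CPM, members with a stated role, the 20 highest features and the 20 with the highest dispersion. Mitochondrial genes and ribosomal RNA were not analysed here, and some list members are counted but not reported here by name or drawn. Total counts of 19446946 to 19838142 per library limit what is detectable to 0.151 to 0.154 CPM in 1 library.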

Additional observations from a re-analysis of the deposited data

How the results depend on the processing

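No paired analysis was possible because only 1 group was analysed. The share of counts on protein-coding genes other than ribosomal protein and histone genes was 86.7%. It became 90.9% with the 10 highest features, some of them protein coding, left out of both its count and the denominator and 91.2% with 7SL, 7SK, RMRP and RPPH1 left out, the latter an alternative added after seeing the data. The ratio of the undifferentiated to the pigment list was 53.2 per length, 56.9 without the highest member of each list, 65.3 without the length, and 56.9 with canonical transcript lengths, also added after seeing the data. The count of variable features fell from 1 to 0 at a mean of 5 CPM or more. Of 35 alternative values of the main results, these 6 went past the tolerance and 29 stayed within it, which was 1.5 times for a count and 1 SD over the libraries for other values. The dispersion, 1.68%, had no such SD and was set against the spread of its own values with 1 library left out, 1.48 to 1.89%, so its place among the 29 is no sign of stability. Features detected numbered 13911 at a minimum of 0.5 CPM and 11239 at 3 CPM, against 12808. Leaving out 1 library gave 12920 to 12925 detected features and ratios of 53.0 to 53.3. Order within the lists depended on the length, and 65 of 364 neighbouring pairs overlapped per length and 85 without length. Of the 364 pairs, 139 stood in the other order without length and 106 with canonical lengths, and the highest member stayed the same in 17 and 19 of 26 lists.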

Other observations

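Among the features of 1000 CPM or more, some genes lay outside the lists. ALDH1A3, a retinal dehydrogenase, stood at 1293, 1319 and 1325 CPM in libraries A, B and C. NF2, the tumour suppressor merlin, stood at 1075, 1074 and 1086 CPM. Both were picked after their values were seen.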
